A study of Mus musculus with 12 samples.

Results

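The genes of the proteasome and of its assembly and activation were followed on 12 mouse arrays. Every probe that was not a control and whose design name was Psma, Psmb, Psmc, Psmd, Psme or Psmg followed only by a number was taken, which gave 60 probes for 47 genes, out of 55681 probes and 34787 gene names on the array. These genes were 7 alpha and 7 constitutive beta subunits of the 20S core, 5 induced or tissue-specific core subunits (Psmb8 to Psmb11 and Psma8), 6 ATPases and 11 non-ATPase subunits of the 19S cap, 3 assembly chaperones of the cap, 4 activators and 4 assembly chaperones of the core. Signal was well above background on all 12 arrays for 45 of them. The exceptions were Psma8, the testis-specific alpha subunit, measured on 3 of 3 knockdown and 2 of 3 control RAW264.7 arrays and on 0 of 6 CT-26 arrays, and Psmb11, the thymus-specific beta subunit, measured on 1 array of each RAW264.7 group and on 0 of 6 CT-26 arrays, which entered no test.

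The proteasome degrades proteins tagged with ubiquitin. Its barrel-shaped core cuts them with Psmb6, Psmb7 and Psmb5, which carry the caspase-like, trypsin-like and chymotrypsin-like activities, and the cap recognises, unfolds and feeds them in. Interferon-gamma leads cells to build Psmb9, Psmb10 and Psmb8 in their place, giving the immunoproteasome, which is abundant in macrophages and shapes the peptides shown on class I molecules. Psme1 and Psme2 form PA28, an activator that interferon also induces.

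The groups were 3 arrays of RAW264.7 cells (a macrophage-like line of mouse origin) transfected with an shRNA against Abhd5, 3 of RAW264.7 cells transfected with the PLKO control vector, 3 of CT-26 cells (derived from a mouse colon carcinoma) that the knockdown macrophages had primed, and 3 of CT-26 cells that the control macrophages had primed. Neither the manner of priming, nor the number of clones or hairpins, nor the source of the 3 samples of a group is stated in the labels, so p-values measure only the spread between these samples, which may be technical. Levels are log2 signals minus the array's 75th percentile, and changes are differences of these levels, each with the standard error (SE) of a limma fit (n = 3 arrays per group) and a p adjusted by the Benjamini-Hochberg method over all genes tested. A gene was called at an adjusted p under 0.05.

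Abhd5, a co-activator of the lipase ATGL, had levels of 0.25, 0.23 and 0.39 in knockdown macrophages, against 1.38, 1.93 and 1.52 in control macrophages (-1.32 ± 0.20, limma adjusted p = 0.00345). On slide 2 alone, where 1 control array stood against 3 knockdown arrays and its spread was assumed to be theirs, its change was -1.23 (adjusted p = 0.0168), and with slide as a block its adjusted p was 0.0554. Spots well above background made up 69.0% to 73.0% on knockdown arrays, against 56.5% to 72.7% on control RAW264.7 arrays, and 59.3% to 67.0% on knockdown-primed arrays, against 68.3% to 77.3% on control-primed arrays. Control replicates 1 and 2 of RAW264.7 were on slide 1, control replicate 3 and the knockdown arrays on slide 2, and all CT-26 arrays on slide 3. The summed linear level of 12 macrophage markers was 293.2 to 353.5 on RAW264.7 arrays, where 12 of 12 were well above background, and 55.2 to 75.1 on CT-26 arrays, where 8 to 10 of 12 were and Adgre1 and Spi1 were on none. That of 10 epithelial markers was 1.50 to 2.74 on RAW264.7 arrays, where 3 to 9 were well above background, and 26.9 to 37.3 on CT-26 arrays, where 7 to 9 were. Of 7 epithelial markers tested between control macrophages and control-primed CT-26 cells, limma called 4 lower and 1 higher in macrophages. Of all genes tested there, 25.3% were lower and 42.3% higher.

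The exchange of constitutive for induced catalytic subunits defines the immunoproteasome. Psmb8 and Psmb9 lie beside the peptide transporter genes Tap1 and Tap2 on chromosome 17, and the window from 250 bases before to 50 after the start of Psmb9 shares 275 of its 300 bases with that of Tap1, which is read from the other strand. RefSeq promoters (GRCm38.p6) matched 39 of the 47 genes. The 250 bases before the start of Psmb5, Psmb6, Psmb8 and Psmb9 are printed 5′ to 3′ because these subunits form 2 of the exchanged pairs. Capitals mark matches, on either strand, to an antioxidant response element core (TGACNNNGC), a gamma-activated site (TTCNNNGAA), an interferon-stimulated response element core (GAAA and GAAA with 2 bases between them) or a CCAAT box (CCAAT). A match is a match of letters only.
Psmb5, chr14:54617996-54618245, minus strand: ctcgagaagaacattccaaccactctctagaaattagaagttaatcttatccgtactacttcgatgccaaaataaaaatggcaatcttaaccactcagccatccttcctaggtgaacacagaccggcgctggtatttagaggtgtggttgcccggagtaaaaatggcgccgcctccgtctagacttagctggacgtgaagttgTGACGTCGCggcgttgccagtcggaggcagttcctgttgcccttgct
Psmb6, chr11:70525107-70525356, plus strand: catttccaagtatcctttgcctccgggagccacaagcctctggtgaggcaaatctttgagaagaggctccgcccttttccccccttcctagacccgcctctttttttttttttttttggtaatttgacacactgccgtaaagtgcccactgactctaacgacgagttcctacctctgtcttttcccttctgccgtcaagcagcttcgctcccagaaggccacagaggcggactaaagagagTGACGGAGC
Psmb8, chr17:34197945-34198194, plus strand: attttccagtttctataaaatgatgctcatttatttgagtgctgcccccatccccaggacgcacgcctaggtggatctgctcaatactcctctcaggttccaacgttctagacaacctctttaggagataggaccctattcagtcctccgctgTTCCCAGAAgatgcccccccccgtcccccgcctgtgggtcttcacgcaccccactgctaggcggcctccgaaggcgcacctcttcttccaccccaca
Psmb9, chr17:34187331-34187580, minus strand: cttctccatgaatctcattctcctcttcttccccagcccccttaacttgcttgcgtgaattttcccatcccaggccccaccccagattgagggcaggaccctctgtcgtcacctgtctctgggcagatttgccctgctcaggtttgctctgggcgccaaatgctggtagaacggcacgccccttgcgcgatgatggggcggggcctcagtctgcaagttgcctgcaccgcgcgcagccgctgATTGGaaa
In these windows Psmb5 and Psmb6 each held an antioxidant response element core, Psmb8 a gamma-activated site and Psmb9 a CCAAT box on the other strand, with no overlap between motifs. Over the full 300 bases, the antioxidant core occurred in 6 of 39 member promoters and in 12.4% of all 32851 promoters, and the gamma-activated site in 3 of 39 and 8.30%. The interferon element core occurred in 5 of 39 and 3.44%, and the CCAAT box in 14 of 39 and 37.4%.

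Psmb8, the induced chymotrypsin-like subunit, had levels of 3.57, 3.58 and 3.48 in knockdown macrophages, against 4.0, 4.21 and 4.22 in control macrophages. The groups did not overlap, and the fall was 1.51-fold (-0.60 ± 0.17, limma adjusted p = 0.0394). Its probe lies at chromosome 17, 34337771 to 34337830, plus strand (mm9, the build of the array's coordinates; exon and UTR positions were not assigned). In CT-26 cells Psmb8 had 2.73, 3.03 and 3.13 after knockdown priming, against 2.41, 2.75 and 2.64 after control priming, and these overlapping levels did not pass the test (0.36 ± 0.17, adjusted p = 0.196).

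Psmb9, the induced subunit that takes the place of Psmb6, did not pass the test in either line. It stood at 3.13, 2.81 and 2.65 in knockdown macrophages, against 2.93, 3.12 and 3.14 in control macrophages (-0.20 ± 0.19, adjusted p = 0.439). In CT-26 cells it had 3.05, 3.35 and 3.28 after knockdown priming, against 3.11, 3.26 and 3.13 after control priming (0.06 ± 0.15, adjusted p = 0.814). All 12 Psmb9 levels lay within 2.65 to 3.35. A second Psmb9 probe was not well above background in any group and was not tested.

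Psmb10, the induced trypsin-like subunit, was lower on every array of the knockdown and knockdown-primed groups, without passing the test in either line. It had 3.45, 3.42 and 3.33 in knockdown macrophages, against 4.10, 3.60 and 4.20 in control macrophages (-0.57 ± 0.21, adjusted p = 0.0727). CT-26 cells had 2.12, 2.08 and 2.39 after knockdown priming, against 2.59, 3.03 and 2.92 after control priming (-0.65 ± 0.18, adjusted p = 0.0599). This was the lowest change of any core subunit tested in CT-26 cells. Of 14 alternatives run there, it passed the test only under quantile normalisation (-0.86, adjusted p = 0.0302), with normexp background correction (-0.69, adjusted p = 0.0428), among genes measured on every array (-0.65, adjusted p = 0.045) and without control-primed replicate 1 (-0.78, adjusted p = 0.0468). It did not pass in the others, among them centring on the array median, no filter on dim probes and the replicate number as a block.

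The constitutive counterparts did not pass the test in either line. Psmb5, the chymotrypsin-like subunit that bortezomib blocks, had 4.80, 5.03 and 4.81 in knockdown macrophages, against 4.95, 5.38 and 5.07 in control macrophages (-0.25 ± 0.19, adjusted p = 0.325). The CT-26 levels were 4.47, 4.57 and 5.03 after knockdown priming, against 4.32, 4.31 and 4.26 after control priming (0.39 ± 0.18, adjusted p = 0.177). The macrophage groups overlapped and the CT-26 groups did not.

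Psmb6, the caspase-like subunit, had 4.81, 5.01 and 4.88 in knockdown macrophages, against 5.18, 5.76 and 5.19 in control macrophages (-0.48 ± 0.21, adjusted p = 0.115). In the carcinoma line it had 4.67, 4.74 and 5.17 after knockdown priming, against 4.42, 4.49 and 4.33 after control priming (0.44 ± 0.18, adjusted p = 0.135). Neither pair of groups overlapped, and the 2 changes had opposite signs. Psmb7, the trypsin-like subunit, had 3.63, 3.34 and 3.18 in knockdown macrophages, against 3.57, 3.59 and 3.84 in control macrophages (-0.29 ± 0.19, adjusted p = 0.271). In CT-26 cells its levels overlapped, with 2.03, 1.80 and 2.72 after knockdown priming, against 1.83, 2.53 and 2.17 after control priming (0.01 ± 0.26, adjusted p = 0.985). RefSeq lists pseudogene copies of Psmb5, Psmb6 and Psmb7, whose signal cannot be told apart here.

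The induced subunit minus its constitutive counterpart was then taken within each array, a difference that does not depend on how the arrays were scaled by a constant. In macrophages the knockdown minus control change of this difference was -0.35 for Psmb8 against Psmb5, 0.28 for Psmb9 against Psmb6 and -0.28 for Psmb10 against Psmb7. In CT-26 cells it was -0.04, -0.38 and -0.66 for the same pairs. The trypsin-like pair gave differences of 0.09, 0.28 and -0.33 after knockdown priming, against 0.75, 0.50 and 0.75 after control priming. An exact two-sided permutation test has a smallest p of 0.1 with 3 arrays against 3. It gave that p for Psmb8 against Psmb5 in macrophages. In CT-26 cells it gave the same p for Psmb9 against Psmb6 and for Psmb10 against Psmb7. Adjusted over the 9 tests of this kind this p was 0.18, so none passed.

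**Figure D1:**
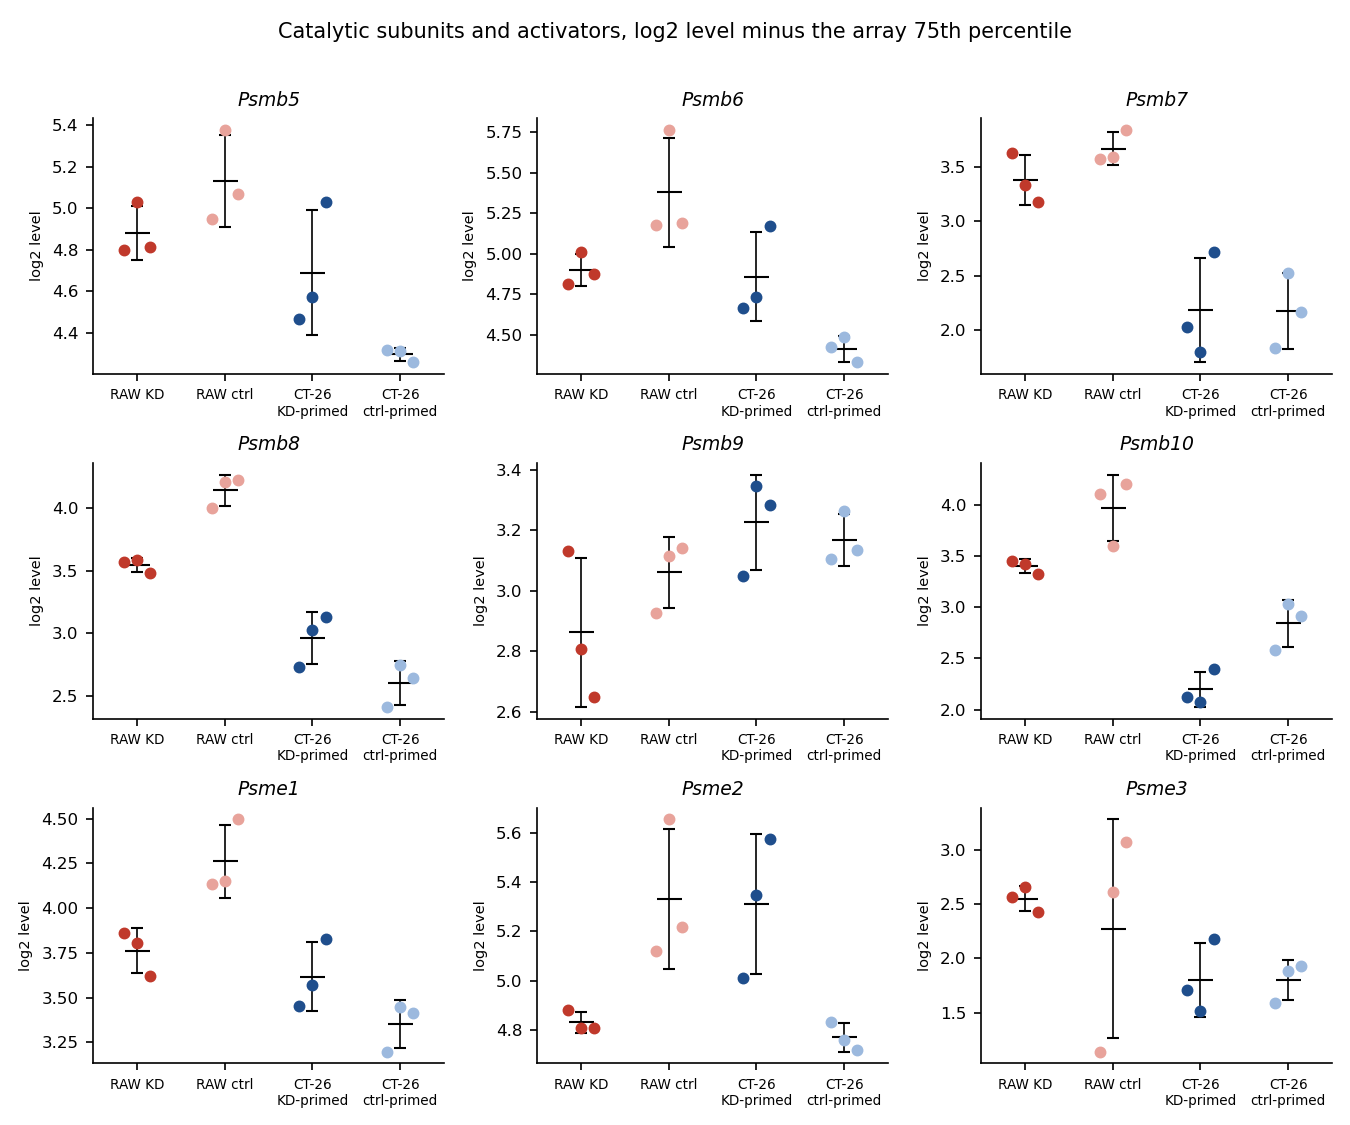
Levels of the catalytic subunits and activators on each array (log2, relative to the array's 75th percentile; points are arrays, bars the mean ± SD, n = 3). Psmb8 sits lower in knockdown than in control macrophages, Psmb9 lies between 2.65 and 3.35 on all arrays, and Psmb10 is lower after knockdown priming than after control priming on all 3 arrays.

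Both PA28 subunits lay lower in knockdown than in control macrophages and higher after knockdown than after control priming on every array, without passing any of these tests. Psme1 had 3.86, 3.81 and 3.62 in knockdown macrophages, against 4.14, 4.15 and 4.50 in control macrophages (-0.50 ± 0.19, adjusted p = 0.077). In CT-26 cells it had 3.45, 3.57 and 3.83 after knockdown priming, against 3.20, 3.45 and 3.41 after control priming (0.26 ± 0.17, adjusted p = 0.302), the ranges meeting at their edges. Psme2 is the other PA28 subunit. It had 4.88, 4.81 and 4.81 in knockdown macrophages, against 5.12, 5.66 and 5.22 in control macrophages (-0.50 ± 0.20, adjusted p = 0.0875). CT-26 cells had 5.01, 5.35 and 5.58 after knockdown priming, against 4.83, 4.76 and 4.72 after control priming (0.54 ± 0.18, adjusted p = 0.0904). A second probe to the same Psme2 transcript gave -0.40 in macrophages and 0.44 in CT-26 cells. A probe to an Ensembl transcript gave the opposite sign in CT-26 cells (-1.42, adjusted p = 0.0323 over all probes), and RefSeq lists the near copy Psme2b, so Psme2 is uncertain.

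Psme3, the nuclear activator PA28-gamma, had 2.57, 2.66 and 2.43 in knockdown macrophages, against 1.14, 2.61 and 3.07 in control macrophages (0.28 ± 0.43, adjusted p = 0.635), with control replicate 1 far below the other control arrays. On slide 2, with its 1 control array, it measured -0.52. The CT-26 levels were 1.71, 1.51 and 2.18 after knockdown priming, against 1.59, 1.88 and 1.93 after control priming (-0.00 ± 0.20, adjusted p = 0.992).

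After Abhd5 silencing in macrophages 41 of 46 members tested lay below zero, which is 89.1%, against 69.4% of all genes tested, with a median change of -0.33, against -0.30 for all genes. By the test 1 was higher and 9 fell, which is 21.7% of members, against 22.9% of all 25238 genes tested (7.95% higher and 14.9% lower), a share near that of the whole array. The fallen members were 2 of 7 alpha subunits, 1 of 7 constitutive beta subunits, Psmb8, 2 of 6 ATPases, 1 of 3 cap chaperones and 2 of 4 core chaperones. By their brightest probes, none of the 11 non-ATPase cap subunits or 4 activators was called by limma (at an unadjusted p under 0.05, 2 activators and 2 non-ATPases were lower). The other probe of Psme4, the activator PA200, gave -0.72, adjusted p = 0.0403.

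Psma8, an alpha subunit of the testis proteasome, was the 1 member called higher. It entered the test through the knockdown arrays, and control replicate 2 was not well above background, so no fold is given. Its levels were -2.07, -1.97 and -2.20 in knockdown macrophages, against -4.16, -4.62 and -5.59 in control macrophages (2.71 ± 0.33, limma adjusted p = 0.00117). No control array reached the knockdown range. The difference measured 1.79 to 3.50 over the alternatives that tested it, and a filter that asked for signal on every array left it out.

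Psmg3, a core assembly chaperone, fell 1.81-fold, with 2.49, 2.29 and 2.29 in knockdown macrophages, against 3.16, 3.48 and 3.0 in control macrophages (-0.86 ± 0.19, limma adjusted p = 0.0194). Psmc1, an ATPase of the cap, had 4.75, 4.80 and 4.63 in knockdown macrophages, against 5.46, 5.62 and 5.25 in control macrophages (-0.72 ± 0.18, adjusted p = 0.028), and its other probe gave -0.53, adjusted p = 0.0909. Psma3, an alpha-ring subunit, had 4.76, 4.68 and 4.64 in knockdown macrophages, against 5.17, 5.67 and 5.32 in control macrophages (-0.69 ± 0.19, adjusted p = 0.0366). No knockdown array of these genes reached the control range.

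Psmd9, a chaperone of cap assembly, had 2.68, 2.58 and 2.43 in knockdown macrophages, against 3.21, 3.25 and 3.09 in control macrophages (-0.62 ± 0.17, adjusted p = 0.0367), but its dimmer probe gave 0.28, adjusted p = 0.604. Psmb2, a structural beta subunit, had 4.88, 4.98 and 4.91 in knockdown macrophages, against 5.38, 5.80 and 5.55 in control macrophages (-0.65 ± 0.18, adjusted p = 0.0382). Here too the groups did not overlap. The other calls were Psmc3 (-0.58), Psmg4 (-0.69) and Psma2 (-0.53), and the other probe of Psmc3 gave -0.38, adjusted p = 0.134. The members not called lay between -0.68 for Psmg1 and 0.28 for Psme3.

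None of the 9 lower calls held over all the alternatives for slide, scaling and single arrays. Over the 6 fits that left out 1 array, Psma8 alone was called in each. With slide as a block, Psma8 alone was called, a member that entered the test only through the knockdown arrays, where it is high. With slide as a block, or on slide 2 alone, Psmg3, Psmc1, Psma3, Psmd9, Psmb2 and Psmb8 measured -0.68 to -0.52. Centring on the array median, or quantile normalisation, left Psma8 and Psmg3, and quantile normalisation turned the sign of 17 members. Leaving out control replicate 1 or knockdown replicate 1 left 2 calls, and leaving out knockdown replicate 2 or 3 left 1.

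Priming by knockdown rather than control macrophages gave CT-26 cells in which 38 of 45 members tested lay above zero, which is 84.4%, against 60.5% of all genes tested, with a median change of 0.29, against 0.11 for all genes. The members' median minus that of all genes, 0.185, was 0.0208 under quantile normalisation and 0.0883 with normexp. By the test 5 rose and 0 fell, so 11.1% of members were higher, against 3.15% of 24757 genes (6.33% in either direction and 3.18% lower). At an unadjusted p under 0.05, limma had 15 members higher and 2 lower (33.3% and 4.44%), against 18.5% and 11.4% of all genes. The risen members were 3 of 11 non-ATPase cap subunits and 2 of 4 core chaperones.

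Psmd6, a lid subunit of the cap, rose 1.73-fold, with 2.71, 2.76 and 3.17 after knockdown priming, against 2.19, 1.97 and 2.11 after control priming (0.79 ± 0.17, limma adjusted p = 0.0357). Psmd7, which pairs with the deubiquitinase Psmd14 in the lid, had 4.19, 4.65 and 4.55 after knockdown priming, against 3.65, 3.64 and 3.84 after control priming (0.75 ± 0.17, adjusted p = 0.0392). Psmd13, another lid subunit, had 1.83, 1.90 and 2.13 after knockdown priming, against 1.19, 1.23 and 1.35 after control priming (0.70 ± 0.16, adjusted p = 0.0361). Each of these lid subunits was higher on all 3 knockdown-primed arrays.

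Psmg1, which with Psmg2 forms a chaperone of alpha-ring assembly, had 3.31, 3.48 and 3.77 after knockdown priming, against 2.90, 2.76 and 2.83 after control priming (0.69 ± 0.17, adjusted p = 0.0442). Its other probe gave 0.48, adjusted p = 0.107. Psmg4, the partner of Psmg3, had 3.53, 3.67 and 3.81 after knockdown priming, against 3.09, 3.02 and 2.97 after control priming (0.64 ± 0.15, adjusted p = 0.0415). Both chaperones lay above the control-primed range on every knockdown-primed array. Psmg2 varied widely, with 1.11, -1.15 and -0.30 after knockdown priming, against 0.45, 1.47 and 1.68 after control priming (-1.32 ± 0.52, adjusted p = 0.131).

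The lowest and highest changes in CT-26 cells were 0.12 (Psma6) and 0.49 (Psma2) among alpha subunits and 0.01 (Psmb7) and 0.73 (Psmb2) among constitutive beta subunits. They were -0.05 (Psmc6) and 0.42 (Psmc2) among ATPases and -0.15 (Psmd2) and 0.79 (Psmd6) among non-ATPases. Quantile normalisation called Psmd13 higher and Psmb10 lower. Leaving out control-primed replicate 2 or 3, or knockdown-primed replicate 2 or 3, left 0 calls. Leaving out control-primed replicate 1 gave 2, Psmd6 higher and Psmb10 lower. Leaving out knockdown-primed replicate 1 gave 8 (7 higher and 1 lower). The arrays' 75th percentiles (log2 signal) were 11.56, 11.16 and 10.82 after knockdown priming, against 11.72, 11.84 and 11.86 after control priming, and the part of signal strength in the result was not tested. Of 9 macrophage markers tested in CT-26 cells 0 rose and 1 fell, Cd68 (-0.83 ± 0.15, adjusted p = 0.0207), against 3.15% and 3.18% of all genes. At an unadjusted limma p under 0.05, 1 of these markers was higher and 2 lower, against 18.5% and 11.4% of all genes. The summed linear level of all 12 was 56.8 to 75.1 after knockdown priming, against 55.2 to 61.0 after control priming, and that of the epithelial markers 26.9 to 34.7, against 32.9 to 37.3 after control priming. Their part in the result was not tested.

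**Figure D2:**
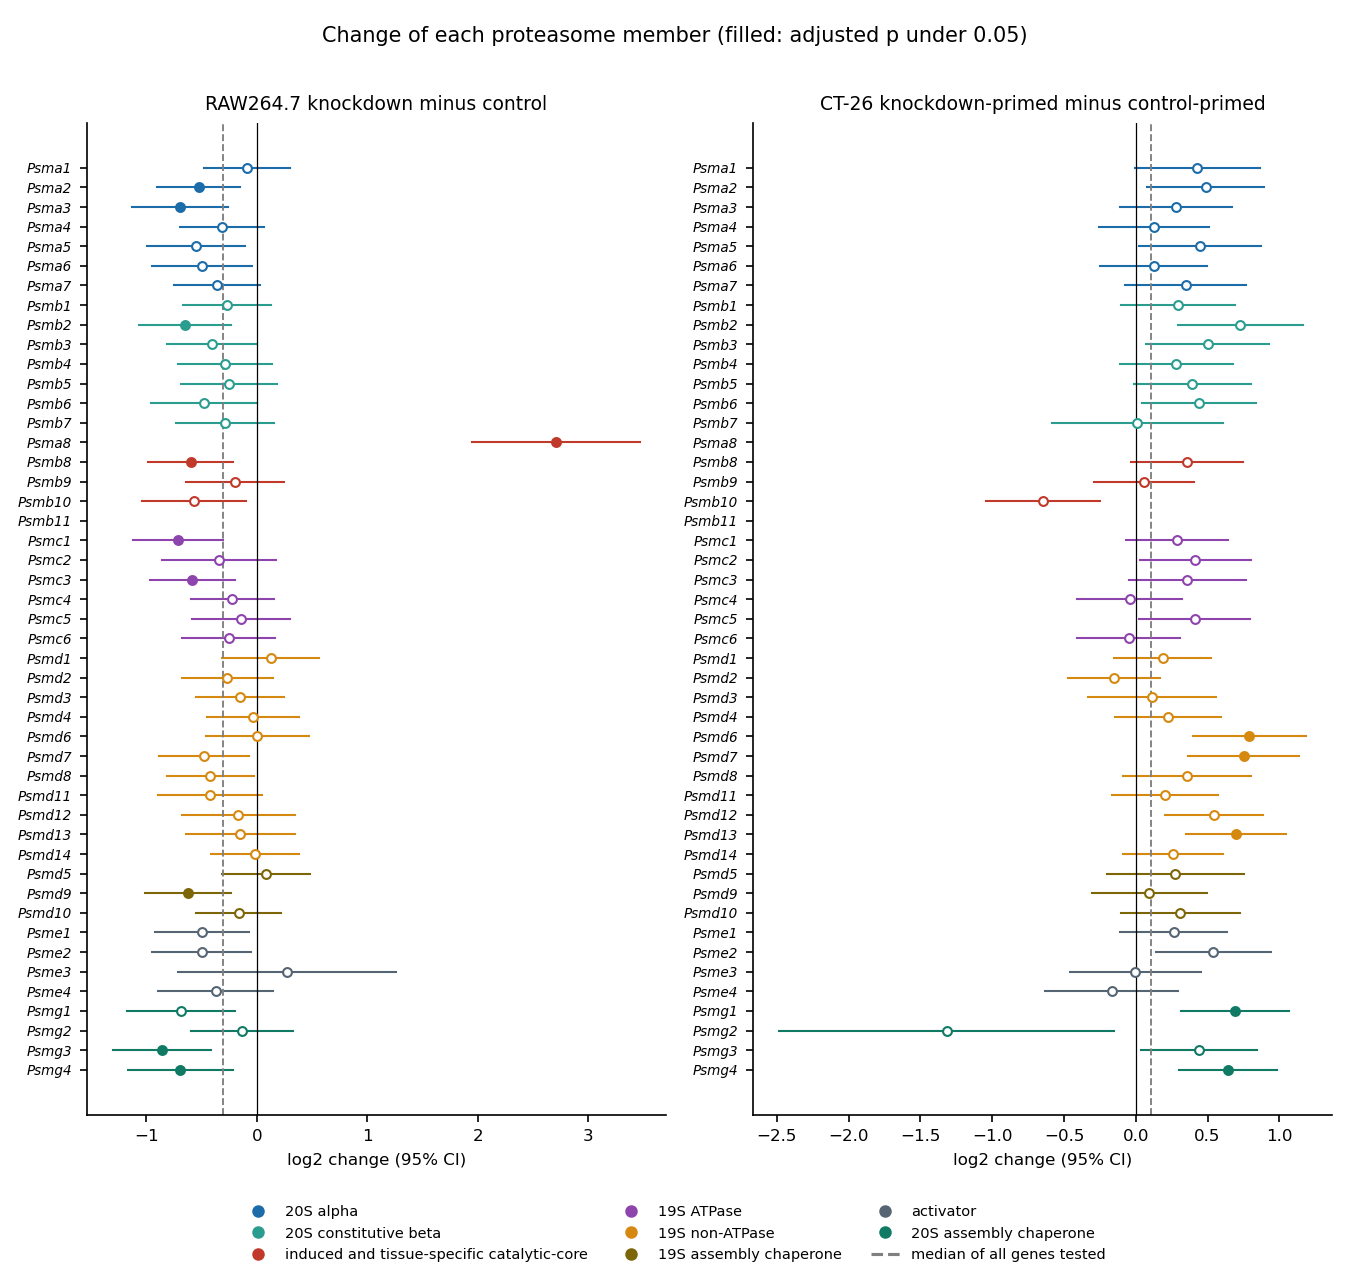
Log2 change of each proteasome gene (points; lines are 95% confidence intervals of the limma fit; filled points have an adjusted p under 0.05), for knockdown minus control macrophages on the left and knockdown-primed minus control-primed CT-26 cells on the right. The dashed lines mark the median of all genes tested, -0.30 and 0.11, and Psma8 at 2.71 stands far to the right in macrophages. Psma8 entered the test only through the knockdown arrays and was not well above background on every control array.

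The change in macrophages minus the change in CT-26 cells was tested directly over the 12 arrays. Of 46 members 1 was higher and 20 lower, the lower ones 43.5%, against 24% of 26741 genes called lower (31.5% in either direction and 7.46% higher). The members' median was -0.64, against -0.39 for all genes. The core chaperones Psmg1 (-1.38 ± 0.27, limma adjusted p = 0.00504), Psmg4 (-1.33 ± 0.25, adjusted p = 0.00397) and Psmg3 (-1.30 ± 0.26, adjusted p = 0.00556) were among the 5 lower members with the smallest adjusted p, beside Psmb2 (-1.38 ± 0.26, adjusted p = 0.00444) and Psmd7 (-1.23 ± 0.24, adjusted p = 0.00453).

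Psmg1 had 4.03, 3.88 and 3.78 in knockdown macrophages, against 4.31, 4.96 and 4.48 in control macrophages, and its rise in CT-26 cells is given above. Psmg4 had 3.75, 3.56 and 3.48 in knockdown macrophages, against 4.04, 4.63 and 4.19 in control macrophages. Psmg3, which fell in macrophages, had 1.63, 1.85 and 1.98 after knockdown priming, against 1.13, 1.63 and 1.38 after control priming. The Psmg1 and Psmg4 groups did not overlap in either line, and the Psmg3 ranges in CT-26 cells met at their edges. Psmb2 had 4.44, 4.71 and 5.12 after knockdown priming, against 4.01, 4.11 and 3.97 after control priming (0.73 ± 0.19, adjusted p = 0.0556). Psmd7 had 3.88, 3.76 and 3.75 in knockdown macrophages, against 4.09, 4.46 and 4.27 in control macrophages (-0.48 ± 0.18, adjusted p = 0.0766). Psma8 was the 1 member called higher (1.45 ± 0.50, adjusted p = 0.0446), but it was well above background on none of the CT-26 arrays and entered through the knockdown macrophages, so this value is no measured difference between the lines.

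Of the catalytic subunits and activators, Psmb6 (-0.92, adjusted p = 0.0272), Psmb8 (-0.96, adjusted p = 0.0113), Psme1 (-0.76, adjusted p = 0.0309) and Psme2 (-1.04, adjusted p = 0.0141) differed between the lines by their brightest probes. The other Psme2 probes gave -0.85, adjusted p = 0.0687, and, for the Ensembl transcript, 1.69, adjusted p = 0.0204, so Psme2 has no settled direction here. Psmb5 (-0.64, adjusted p = 0.0722), Psmb7 (-0.30, adjusted p = 0.535), Psmb9 (-0.26, adjusted p = 0.409), Psmb10 (0.08, adjusted p = 0.839) and Psme3 (0.28, adjusted p = 0.71) did not pass the test. The count of members called was 6 under quantile normalisation (1 higher and 5 lower), 8 with slide as a block, 10 without the slide 1 controls, and 12, 12 and 13 without knockdown, control-primed or knockdown-primed replicate 3. Psmb2, Psmd7, Psmg1 and Psmg4 were called in all 22 alternatives run.

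**Figure D3:**
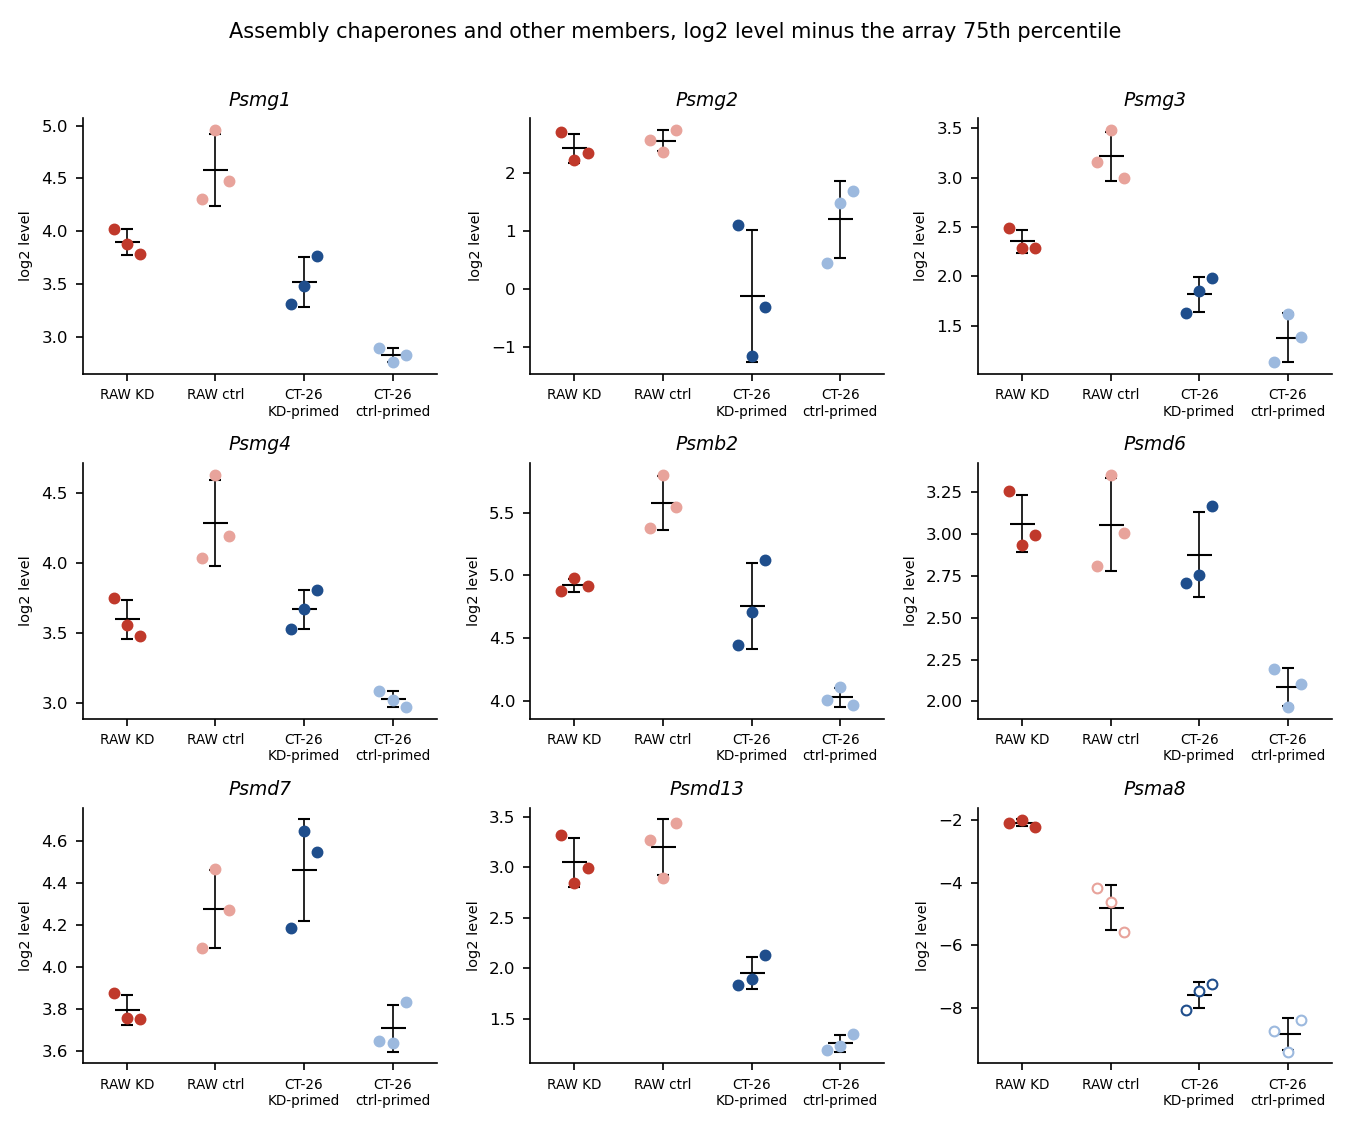
Levels on each array of the 4 core assembly chaperones and of Psmb2, Psmd6, Psmd7, Psmd13 and Psma8 (log2, relative to the array's 75th percentile; points are arrays, bars the mean ± SD, n = 3; open points where a group has an array not well above background). Psmg1, Psmg4, Psmb2 and Psmd7 sit lower in knockdown than in control macrophages and higher in knockdown-primed than in control-primed CT-26 cells.

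Control macrophages were also set against control-primed CT-26 cells. This comparison shares its arrays with those above, and cell line, slide and priming cannot be told apart in it. By the test 39 of 45 members were higher in macrophages and 1 lower, so 86.7% were higher, against 42.3% of 25355 genes (25.3% lower and 67.6% in either direction). The median difference was 1.0, against 0.41 for all genes. All 7 alpha, all 7 constitutive beta and all 4 core chaperone genes were higher, with 10 of 11 non-ATPases, 5 of 6 ATPases, 2 of 3 cap chaperones and 2 of 4 activators. These counts are by the brightest probes. For the 2 cap chaperones, the other probe gave -0.20 for Psmd10 (limma adjusted p = 0.454) and 0.82 for Psmd9 (adjusted p = 0.156).

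Psmd13 was 3.85-fold higher, with 3.27, 2.90 and 3.43 in control macrophages, against 1.19, 1.23 and 1.35 in control-primed CT-26 cells (1.94 ± 0.19, limma adjusted p = 6.85e-05). Psmb3, a structural beta subunit, had 5.46, 5.79 and 5.58 in control macrophages, against 3.93, 4.12 and 3.92 in control-primed CT-26 cells (1.62 ± 0.18, adjusted p = 1.08e-04). Psmc1 differed by 1.56 ± 0.18 (adjusted p = 1.31e-04), Psmg3 by 1.83 ± 0.21 (adjusted p = 1.50e-04) and Psmb8 by 1.54 ± 0.18 (adjusted p = 1.53e-04). Psmc6, an ATPase, was the 1 member lower in macrophages, by 2.12-fold, with 1.34, 1.78 and 1.68 in control macrophages, against 2.77, 2.47 and 2.83 in control-primed CT-26 cells (-1.09 ± 0.20, adjusted p = 0.0018).

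The induced subunits did not move alike. Psmb8 was 2.91-fold higher in macrophages and Psmb10 differed by 1.13 ± 0.22 (adjusted p = 0.00287), while Psmb9 differed by -0.11 ± 0.17 (adjusted p = 0.581). Their counterparts Psmb7 (1.49 ± 0.22), Psmb6 (0.96 ± 0.21) and Psmb5 (0.83 ± 0.18) were all called higher. Within arrays, Psmb8 minus Psmb5 differed by 0.70, Psmb9 minus Psmb6 by -1.07 and Psmb10 minus Psmb7 by -0.37. The exact p was 0.1, 0.1 and 0.2, or 0.18, 0.18 and 0.3 adjusted. By their brightest probes, Psme1 (0.91 ± 0.18) and Psme2 (0.56 ± 0.20) were called higher and Psme3 (0.47 ± 0.45) was not called. The other Psme2 probes gave 0.85, limma adjusted p = 0.019, and, for the Ensembl transcript, -3.13, adjusted p = 1.6e-05. Psme2 therefore has no settled direction in this comparison.

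Quantile normalisation gave 22 calls (19 higher and 3 lower). Psme2 then measured -0.14, adjusted p = 0.411, and Psmb9 -0.77, adjusted p = 0.00169.

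**Figure D4:**
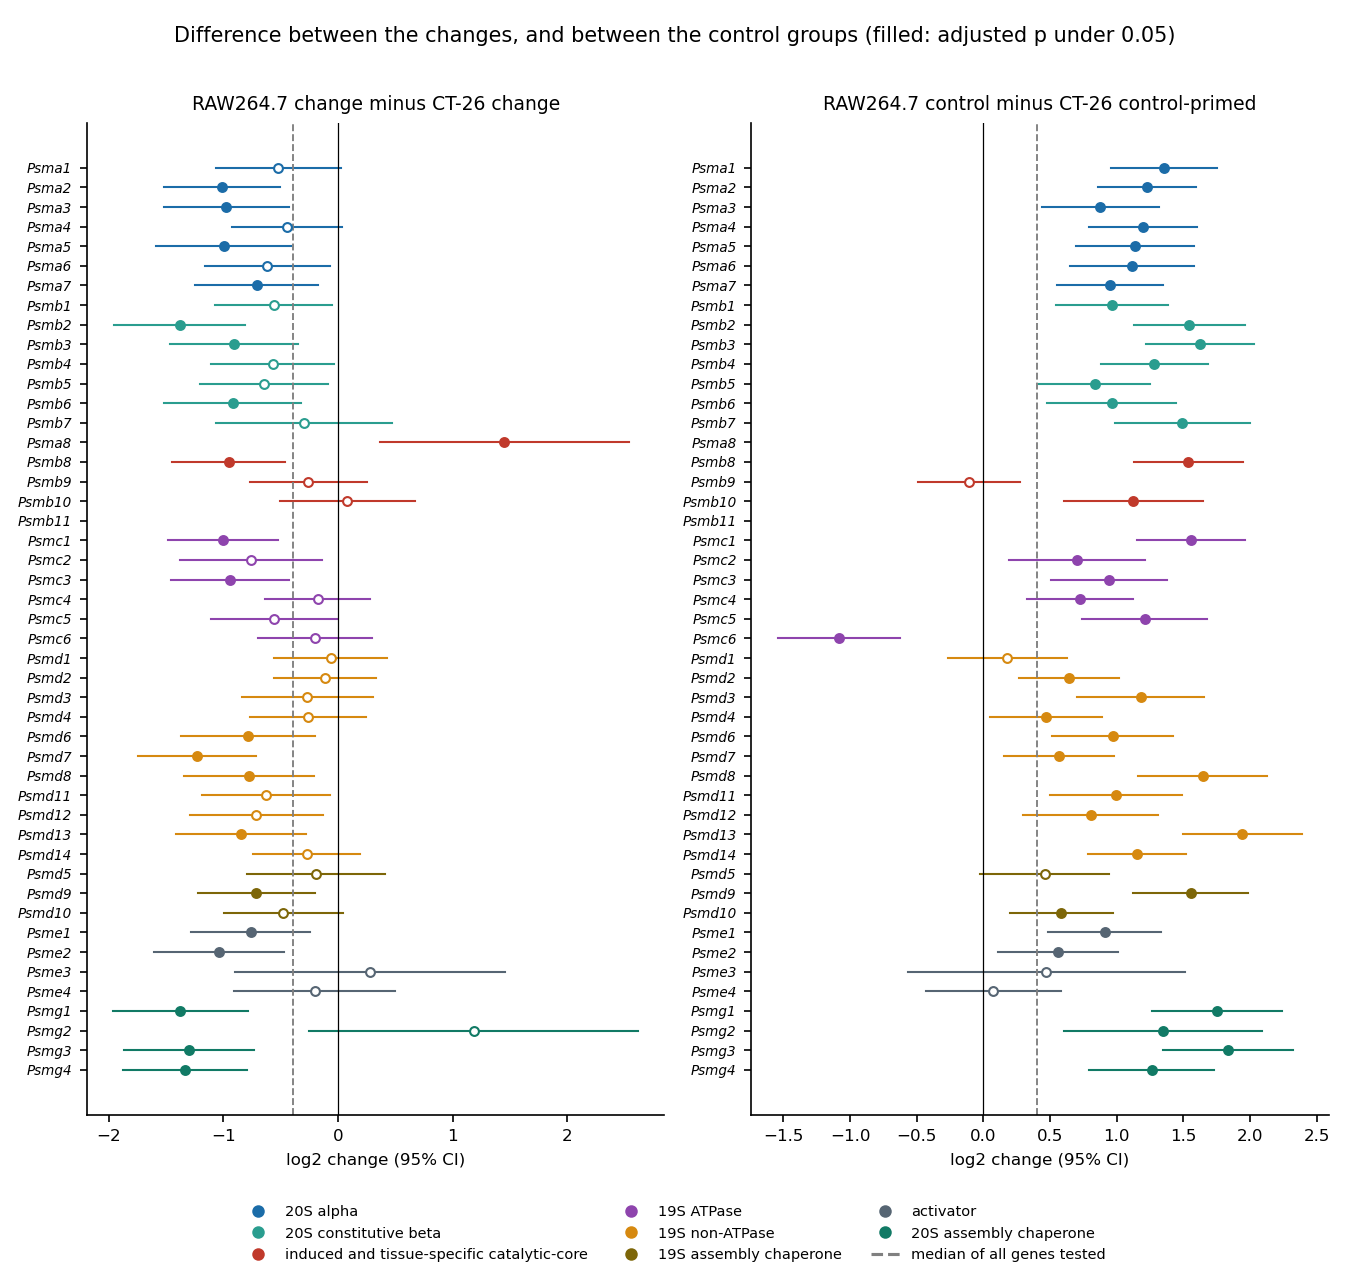
Log2 difference of each proteasome gene (points; lines are 95% confidence intervals of the limma fit; filled points have an adjusted p under 0.05), for the macrophage change minus the CT-26 change on the left and control macrophages minus control-primed CT-26 cells on the right. The dashed lines mark the median of all genes tested, -0.39 and 0.41, and Psmc6 at -1.09 is the filled point below zero on the right.

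Genes that work with the proteasome were read from 3 lists. Among the proteasome partners tested in macrophages, Zfand5, a zinc-finger protein that stimulates the proteasome, rose (1.07 ± 0.22, limma adjusted p = 0.0131), and Ecpas, a proteasome adaptor, fell (-0.89 ± 0.23, adjusted p = 0.0316). Of 7 regulators of proteasome genes 0 rose and 1 fell, the interferon regulatory factor Irf8, with 2.66, 2.45 and 2.22 in knockdown macrophages, against 3.44, 3.89 and 3.60 in control macrophages (-1.20 ± 0.20, adjusted p = 0.00607). Of 11 class I processing genes 1 rose, the peptide editor Tapbpl (1.09 ± 0.19, adjusted p = 0.00756), and 1 fell, Tap1 (-0.64 ± 0.19, adjusted p = 0.043), which was named after its values were seen. The shares called were 14.3% of the regulators and 18.2% of the class I genes, against 22.9% of all genes tested.

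In CT-26 cells limma called 0 of 8 regulators (1 higher and 0 lower at an unadjusted p under 0.05) and 0 of 11 class I genes (0 unadjusted). Of all genes tested there 6.33% were called, and 18.5% were higher and 11.4% lower at an unadjusted p under 0.05. Between the control groups 13 of 23 partners were higher in macrophages and 3 lower, against 42.3% and 25.3% of all genes; among them were Uchl5, a deubiquitinase of the cap (1.51 ± 0.17), Psmf1, the regulator PI31 (1.67 ± 0.22), Zfand5 (-2.59 ± 0.19) and Txnl1, a thioredoxin-like protein of the cap (-2.29 ± 0.29). Of 8 regulators 2 were higher and 3 lower, among them Irf8 (5.08 ± 0.20) and Irf1, which drives induced subunits after interferon (-1.63 ± 0.16). Of 11 class I genes 3 were higher and 5 lower. The regulators and class I genes called in either direction are to be read against 67.6% of all genes.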

How the data were processed

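Total RNA of 12 samples was labelled with Cy3 and hybridised to 1-colour Agilent arrays, per the labels' protocols. Spot intensities were deposited as Agilent Feature Extraction output (version 10.7.3.1, per the submitters' processing notes), whose processed signal is background-corrected, per the file headers. A value table was also deposited by the authors. Its RAW264.7 columns were deposited as log2 values minus the array's 75th percentile, as set against the scanner files, and its CT-26 columns as linear intensities, of which 1 of 6 correlated best with its own scanner file. The table served only as an alternative.

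Control spots (3671 per array) and outlier-flagged spots were left out, spots of a probe were averaged, and log2 processed signals minus the array's 75th percentile were used. A gene was read from its brightest probe and tested where Agilent's well-above-background flag was set for it on the 3 arrays of at least 1 group. Tests were two-sided, with limma 3.58.1 (lmFit, eBayes) in R 4.3.3 and Benjamini-Hochberg adjustment over all genes tested, and were tested on simulated data. The number of arrays limits the precision. Members and gene lists were chosen with earlier results of these data known. Named throughout were Psmb5 to Psmb10 and Psme1 to Psme3, then, per comparison, up to 5 risen and 5 fallen members with the smallest adjusted p, and the lowest and highest of each subgroup. Alternatives covered scaling, background correction (normexp, offset 50), the filter, probe choice, the deposited table, slide and replicate blocks, and leaving out each array. Some results of the partner list are not reported here. Gene names followed RefSeq (GRCm38.p6) where accessions matched.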

Additional observations from a re-analysis of the deposited data

Results flagged for a closer look

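The limma test of the difference itself (log2 difference, macrophage change minus CT-26 change, 3 arrays per group) called 24% of 26741 genes lower. Of 46 members tested, 20 were called lower (43.5%). Their change between knockdown and control macrophages thus differed from that between knockdown-primed and control-primed CT-26 cells. Among alpha-ring subunits these were Psma2 (-1.01, adjusted p = 0.00975), Psma5 (-1.0, adjusted p = 0.019), Psma3 (-0.97, adjusted p = 0.0156) and Psma7 (-0.71, adjusted p = 0.0452). Among beta subunits, induced ones included, they were Psmb2 (-1.38, adjusted p = 0.00444), Psmb6 (-0.92, adjusted p = 0.0272), Psmb3 (-0.90, adjusted p = 0.0223) and Psmb8 (-0.96, adjusted p = 0.0113). The cap ATPases were Psmc1 (-1.01, adjusted p = 0.00809) and Psmc3 (-0.94, adjusted p = 0.0142), and the non-ATPase cap subunits were Psmd7 (-1.23, adjusted p = 0.00453), Psmd13 (-0.85, adjusted p = 0.0298), Psmd6 (-0.78, adjusted p = 0.0434) and Psmd8 (-0.78, adjusted p = 0.04). The cap chaperone was Psmd9 (-0.71, adjusted p = 0.038), and the activators were Psme2 (-1.04, adjusted p = 0.0141) and Psme1 (-0.76, adjusted p = 0.0309). The core chaperones were Psmg1 (-1.38, adjusted p = 0.00504), Psmg4 (-1.33, adjusted p = 0.00397) and Psmg3 (-1.30, adjusted p = 0.00556). The value for Psma8 (1.45, adjusted p = 0.0446) also passed the threshold, but Psma8 was well above background on none of the CT-26 arrays, so it is no measured difference. A Psme2 probe to an Ensembl transcript gave 1.69, adjusted p = 0.0204, the opposite direction. The dimmer Psmd9 probe also had the opposite sign and did not pass the test (0.51, adjusted p = 0.495). Slide 3 holds all CT-26 arrays, so cell line and slide cannot be told apart. Under quantile normalisation 5 members were called lower, and the members' median minus that of all genes was 0.0592, against -0.244 in the main fit.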

How the results depend on the processing

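The count of members called in macrophages, 10, was 2 with arrays centred on their median, 2 under quantile normalisation (1 higher and 1 lower), 1 with no filter on dim probes, 1 with slide as a block and 1 on slide 2 alone, which holds 1 control array. In CT-26 cells the count of 5 was 2 under quantile normalisation (1 higher and 1 lower) and 0 with no filter. For the difference between the lines the count of 21 was 6 under quantile normalisation (1 higher and 5 lower), 8 with slide as a block and 10 without the slide 1 controls. Between the control groups the count of 40 was 22 under quantile normalisation (19 higher and 3 lower). In the main fits limma called 22.9%, 6.33%, 31.5% and 67.6% of all genes tested in these comparisons, in the same order. The shares of all genes under the alternatives are not given here. Whether a drop in count is particular to the members or common to the array cannot be read from these counts. Leaving out 1 array at a time gave 1 to 10 in macrophages, 0 to 8 in CT-26 cells, 12 to 23 for the difference and 36 to 41 between controls. The members' median minus that of all genes was -0.244 for the difference between the lines, with 0.0592 under quantile normalisation, -0.0467 with normexp and -0.0608 with no filter. Between the controls it was 0.591, with 0.225 under quantile normalisation and 0.842 without the slide 1 controls. Leave-one-out ranges of this median were -0.0711 to 0.00421, 0.112 to 0.274, -0.301 to -0.162 and 0.59 to 0.653 in the same order. The Psmb8 against Psmb5 change in macrophages was -0.50 under quantile normalisation. Erap1, in the difference between the lines, turned to -0.17 with normexp, and Psme2, between the controls, to -0.14 under quantile normalisation. The cause of these shifts was not tested. Leaving out the slide 1 controls for the comparisons between the lines was chosen after seeing the data.

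No pairing of the samples by replicate number was seen, though 3 arrays per group limit this check. After each gene's group mean was subtracted, same-numbered arrays of different groups correlated at -0.29 to 0.06. With the replicate number as a block the counts were 3 in macrophages, 0 in CT-26 cells, 18 for the difference and 37 between controls. Psma8 and Psmb11 had too little signal in CT-26 cells for a test there.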
